A study of Mus musculus with 9 samples.

Results

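Ivl, Lor, Evpl, Ppl, Tgm1, Tgm3, Tgm5, Cdsn, Cnfn and Casp14 encode proteins of the cornified envelope and the enzymes that build it. They were chosen by gene symbol, and all 10 were found once each among the 38203 genes of the table of FPKM, fragment counts scaled by the authors to exon length and library size. All 10 also passed the filter on low values, an average above 0.1 FPKM in at least 1 genotype, which left 16897 genes for testing. The study asked what the loss of Esrp1 and Esrp2, splicing regulators of epithelial cells, does to the epidermis. RNA with poly(A) tails was sequenced from 9 E18.5 mouse embryos, 1 library each, whose trunk epidermis had been lifted off the dermis by hand after trypsin treatment. WT (Esrp1 WT/Esrp2 WT) was represented by 2 libraries, KO (Esrp1 KO/Esrp2 WT) by 3, KH (Esrp1 KO/Esrp2 Het) by 2 and DKO (Esrp1 KO/Esrp2 KO) by 2.

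All embryos shared a mixed C57BL6/129Sv background that had been crossed back to C57BL6, and the labels name no treatment. The Esrp1 KO allele was a germline deletion made with Zp3-Cre, a Cre active in oocytes, and the Esrp2 KO allele a LacZ and neo replacement, so both genes were lost in every tissue of the embryo and not in keratinocytes alone. KO, KH and DKO embryos came from different crosses, and of these only the cross for KO can give WT embryos, so genotype and cross cannot be told apart except in KO against WT. Which litters the WT libraries came from is not given in the sources used here. The extraction text describes the control embryos as lacking Esrp2, but their labels read WT, and Esrp2 stood at 118.1 and 135.8 FPKM in WT, against 0.0843 and 0.0463 FPKM in DKO and 38.6 to 131.1 FPKM in the KO and KH libraries. Esrp1 was 119.0 and 141.9 FPKM in WT and 18.2 to 55.1 FPKM in the other 7 libraries. These are whole-gene values, in which transcript that lacks the deleted exons still counts.

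KO replicate 1, KH replicate 1 and DKO replicate 2 stood apart from the other 6 libraries. Their FPKM values summed to 734747, 713318 and 771857, whereas the other libraries summed to between 867380 and 1130713. The summed FPKM of 6 basal keratinocyte markers was 7877, 6988 and 7118 in these 3 libraries and 3653 to 5931 in the others. The summed FPKM of 6 spinous layer markers, cells above the basal layer, was 31150.1, 37730.2 and 34157 in the 3 libraries and 58641 to 83986 in the others. Krt1, Krt10 and Krtdap made up nearly all of this sum. The other spinous markers, Dsg1a, Dsc1 and Notch3, did not set the 3 libraries apart. Dsc1 was 84.0, 124.1 and 72.1 FPKM there, but 71.7 FPKM in KO replicate 2 and 59.4 FPKM in DKO replicate 1. Dermal fibroblast markers (6 genes) summed to 149.6, 138.4 and 75.3 FPKM in the same 3 libraries and to 44.2 to 89.9 FPKM in the rest. Most of this was Dcn, at 136.2, 134.6 and 72.8 FPKM in the 3 libraries, where Col3a1 was 5.39, 0.966 and 0.417 FPKM. The defining endothelial and muscle markers summed to at most 0.339 and 0.479 FPKM anywhere. Melanocyte markers (5 genes) summed to 42.4 and 46.6 FPKM in WT, while KO embryos had 66.4 to 80.5 FPKM, KH embryos 55.9 and 148.1 and DKO embryos 93.1 and 204.0. Immune markers (5 genes) summed to 2.92 to 25.7 FPKM, red cell markers (3 genes) to 5.92 to 559.2 FPKM and hair follicle markers (6 genes) to 11.7 to 36.5 FPKM, the last highest in KO replicate 1, KH replicate 1 and DKO replicate 2. Xist, expressed from the inactive X chromosome, was detected at 76.2 to 180.4 FPKM in all 3 KO embryos, at 110.9 FPKM in 1 WT embryo and at 0.178 FPKM or less in the other 5 embryos. Xist thus separates all KO embryos from all KH and DKO embryos. Genotype and sex, as Xist marks it, cannot be told apart in DKO or KH against KO. The part of these marker and Xist differences in the results below was not tested. In bulk epidermis, fewer cells of a type and less RNA per cell cannot be told apart.

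The cornified envelope is a protein shell laid down beneath the plasma membrane of keratinocytes as they leave the granular layer, die and become the dead scales of the skin surface. Envoplakin (Evpl) and periplakin (Ppl) form an early scaffold at the membrane, involucrin (Ivl) joins it, and loricrin (Lor) is later added as the main reinforcing protein. Transglutaminases cross-link these proteins into an insoluble sheet. Corneodesmosin (Cdsn) holds neighbouring cornified cells together, cornifelin (Cnfn) is an envelope component, and caspase-14 (Casp14) is a protease of the upper epidermis that helps break down filaggrin.

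Sequence before the transcription start is shown for the precursor genes Lor and Ivl, which hold both motifs that were found, and for Tgm3 and Tgm5, the transglutaminases that differed most from WT. Each line is 120 bases 5′ to 3′ from RefSeq (GRCm38.p6): chr3:92083143-92083262 on the minus strand for Lor, chr3:92573736-92573855 on the minus strand for Ivl, chr2:130012220-130012339 on the plus strand for Tgm3 and chr2:121085842-121085961 on the minus strand for Tgm5. Capitals mark TGANTCA, the letters bound by AP-1, and TATAAA, the TATA box, each searched on both strands.
Lor: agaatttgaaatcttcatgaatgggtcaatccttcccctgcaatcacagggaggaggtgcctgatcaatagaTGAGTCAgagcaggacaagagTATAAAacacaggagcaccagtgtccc
Ivl: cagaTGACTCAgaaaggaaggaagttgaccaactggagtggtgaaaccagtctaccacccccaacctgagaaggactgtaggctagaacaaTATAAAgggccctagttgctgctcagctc
Tgm3: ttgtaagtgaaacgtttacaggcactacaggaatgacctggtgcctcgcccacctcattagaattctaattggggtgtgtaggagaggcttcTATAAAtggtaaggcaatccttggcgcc
Tgm5: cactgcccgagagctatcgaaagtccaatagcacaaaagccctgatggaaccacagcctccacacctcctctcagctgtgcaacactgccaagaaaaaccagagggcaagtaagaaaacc
Promoter windows of 250 bases were matched for 8 of the 10 genes. Evpl and Ppl had no entry. TGANTCA was found in 2 genes, starting at position -48 in Lor and -116 in Ivl (counted back from -1, the base before the start), and 6.75% of 32851 RefSeq windows of this length hold it. TATAAA was found in 3, starting at -27 in Lor, -29 in Ivl and -28 in Tgm3, and 12.4% of windows hold it. AACCNGTT, a letter run bound by grainyhead-like factors, was found in 0 of the 8 genes and in 1.79% of windows. These matches describe the letters only, and the motifs do not overlap one another in these genes.

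Lor, Ivl, Cnfn, Casp14 and Cdsn were the most abundant of the 10 genes and Tgm5 the least, on the FPKM scale, which is per exon length. Lor averaged 4619 FPKM over the 9 libraries, with a range of 1973 to 7007, and lay above every value of the other genes. Cnfn (1198 FPKM on average), Ivl (906.3), Casp14 (411.6), Cdsn (276.6), Ppl (174.4), Tgm1 (133.0), Evpl (89.4) and Tgm3 (52.7) followed, and the ranges of each pair of neighbours in this order overlapped. Tgm5, at 6.91 to 19.4 FPKM, lay below all values of Tgm3, the next gene, at 26.2 to 98.4 FPKM. The plot of FPKM by genotype shows the 9 values of each gene.

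**Figure D1:**
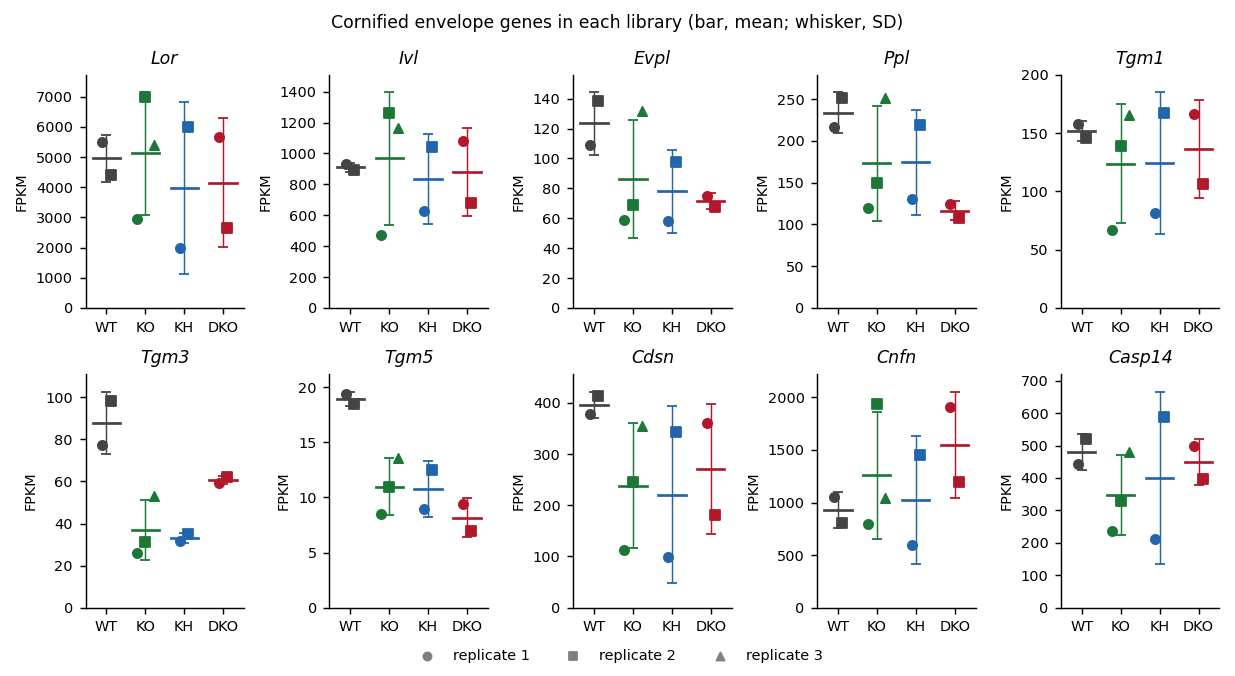
FPKM (vertical axes, linear, from 0) of the 10 cornified envelope genes in WT, KO, KH and DKO epidermis. Each point is 1 library (marker shape gives the replicate number), the horizontal bar is the mean and the whisker 1 SD. Tgm3, Tgm5 and Cdsn lay below both WT libraries in all 7 libraries without Esrp1, whereas Lor and Ivl spanned the WT values in KO, KH and DKO.

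None of the 10 genes was called in any of the 6 comparisons between genotypes. Calls required both an adjusted p under 0.05 (limma on log2(FPKM + 1), Benjamini-Hochberg over all 16897 genes) and genotype means over 2-fold apart. By this rule 0.728% of all genes tested were called in DKO against WT, 0.0296% in KO against WT, 0.0296% in KH against WT, 0.639% in DKO against KO, 0.426% in DKO against KH and 0% in KH against KO. At an unadjusted limma p below 0.05 the 10 genes gave 2, 2, 2, 1, 1 and 0 genes in the same order, beside 13.8%, 4.53%, 3.72%, 6.8%, 5.71% and 1.09% of all genes. The median log2 difference of the 10 genes from WT was -0.43 in DKO, -0.51 in KO and -0.49 in KH, beside 0.02, 0 and 0 over all genes. Without KO replicate 1, KH replicate 1 and DKO replicate 2, the medians of the 10 genes were -0.04, -0.27 and 0.02. This alternative was chosen after the values were seen. It leaves out the libraries of lowest summed FPKM, and KH and DKO then keep 1 library each. Most of the 10 genes were among their lowest values in those libraries. Leaving them out therefore raises the medians, which is no test of the differences, here or for the single genes and lists below. The comparisons of DKO, KO and KH with WT share the same 2 WT libraries. Each p sets a difference of genotype means against the spread between single embryos. This spread was pooled over the 4 genotypes and moderated over all genes.

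Differences between libraries of one genotype limited what could be seen. The standard error of the log2 difference between DKO and WT ran from 0.27 for Tgm5 to 0.70 for Lor. For Lor the 95% interval of this difference ran from 0.259-fold to 2.39-fold, and for Tgm5 from 0.297-fold to 0.699-fold, both on the log2(FPKM + 1) scale.

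The precursors Lor and Ivl lay on both sides of WT in each of KO, KH and DKO. Lor was 5511 and 4398 FPKM in WT, while KO embryos had 2960.2, 7007 and 5411 FPKM, KH embryos 1973 and 5996 and DKO embryos 5665 and 2645. The libraries without Esrp1 lay on both sides of WT, 3 below both WT libraries and 3 above both. Its log2 difference was -0.35 (standard error 0.70, adjusted p = 0.849) in DKO, -0.03 (0.64, 0.999) in KO and -0.52 (0.70, 0.984) in KH against WT, from limma with Benjamini-Hochberg adjustment.

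Ivl, which sits in the epidermal differentiation complex on chromosome 3 as Lor does, was 930.6 and 890.3 FPKM in WT, while KO embryos had 473.7, 1263 and 1168 FPKM, KH embryos 630.2 and 1041 and DKO embryos 1083 and 676.9. Here 3 libraries without Esrp1 were below both WT libraries and 4 above both. The log2 difference from WT was -0.09 in DKO (0.417-fold to 2.12-fold at 95%), -0.04 in KO (0.464-fold to 2.05-fold) and -0.17 in KH (0.394-fold to 2.01-fold). In the annotation of GRCm38 (GENCODE M21), Lor spans chr3:92080271-92083142 and Ivl chr3:92570902-92573735, both on the minus strand and with 2 exons. Without KO replicate 1, KH replicate 1 and DKO replicate 2, the differences of Lor from WT became 0.20 in DKO, 0.32 in KO and 0.28 in KH, and those of Ivl 0.25, 0.42 and 0.19.

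The plakins Evpl and Ppl were each lower in the DKO embryos than in either WT embryo. Evpl was 108.7 and 138.4 FPKM in WT, while KO embryos had 58.6, 68.9 and 131.4 FPKM, KH embryos 58.3 and 97.7 and DKO embryos 75.2 and 67.8. KO replicate 3 alone kept the libraries without Esrp1 from lying wholly below WT. Its log2 difference from WT was -0.77 (standard error 0.39, adjusted p = 0.418 by limma with Benjamini-Hochberg adjustment) in DKO.

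Ppl was 216.6 and 251.6 FPKM in WT, while KO embryos had 119.3, 150.0 and 251.0 FPKM, KH embryos 130.1 and 218.6 and DKO embryos 124.3 and 108.1. The DKO mean was 49.6% of the WT mean, with the DKO libraries well clear of WT, whereas KO replicate 3 and KH replicate 2 reached the WT range. The log2 difference in DKO was -1.004 (standard error 0.37, unadjusted p = 0.0258, adjusted p = 0.294 by limma with Benjamini-Hochberg adjustment), an interval of 0.277-fold to 0.899-fold. Against KO and KH the DKO difference of Ppl was -0.51 and -0.54 (adjusted p = 0.996 and 0.971). The DKO differences of Evpl and Ppl kept their sign without KO replicate 1, KH replicate 1 and DKO replicate 2, at -0.70 and -0.90.

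Of the transglutaminases, Tgm1, the membrane-anchored enzyme of the upper epidermis, overlapped WT in every genotype. Tgm1 was 158.1 and 145.7 FPKM in WT, while KO embryos had 67.1, 138.5 and 165.7 FPKM, KH embryos 81.6 and 167.6 and DKO embryos 166.0 and 106.5. It was below both WT libraries in 4 of the 7 libraries without Esrp1 and above both in 3. Its log2 difference from WT was -0.19 in DKO, -0.39 in KO and -0.37 in KH (adjusted p = 0.882, 0.864 and 0.980 by limma with Benjamini-Hochberg adjustment). The sign turned in DKO without DKO replicate 2 (0.13) and in KH without KH replicate 1 (0.14).

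Tgm3, a soluble epidermal and hair transglutaminase activated by cleavage, had a different pattern. Tgm3 was 77.5 and 98.4 FPKM in WT, while KO embryos had 26.2, 31.3 and 53.0 FPKM, KH embryos 31.5 and 34.8 and DKO embryos 59.3 and 62.0. All KO and KH libraries lay below both DKO libraries, and both DKO libraries lay below both WT libraries. All 7 libraries without Esrp1 lay below WT for 5.08% of all genes, and both DKO libraries lay above all KO and KH libraries for 6.21% of all genes.

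The mean of Tgm3 was 41.9% of WT in KO, 37.7% in KH and 69.0% in DKO. The log2 difference from WT was -1.29 (standard error 0.28, unadjusted p = 0.00157, adjusted p = 0.853) in KO, -1.37 (0.31, 0.00186, 0.730) in KH and -0.52 (0.31, 0.130, 0.479) in DKO, from limma with Benjamini-Hochberg adjustment. DKO exceeded KO by 0.77 on the log2 scale (0.28, unadjusted p = 0.0248, adjusted p = 0.560) and KH by 0.85 (0.31, 0.0234, 0.699) in the same fit. None of these passed the adjusted threshold, and DKO and KH also differed from KO in Xist. The highest library of a genotype exceeded the lowest by 2.03-fold for Tgm3 in KO, 1.27-fold in WT, 1.11-fold in KH and 1.05-fold in DKO. Its KO and KH differences from WT were -1.08 and -1.30 without KO replicate 1, KH replicate 1 and DKO replicate 2. Tgm3 lies at chr2:130012349-130050399 on the plus strand, with 13 exons in its longest transcript.

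Tgm5, an enzyme whose loss in humans causes superficial skin peeling, was 19.4 and 18.49 FPKM in WT, while KO embryos had 8.46, 10.9 and 13.6 FPKM, KH embryos 8.96 and 12.5 and DKO embryos 9.44 and 6.91. All 7 libraries without Esrp1 were below both WT libraries, and DKO had the lowest mean, 43.2% of WT, against 58.0% in KO and 56.7% in KH. The log2 difference from WT was -1.13 (standard error 0.27, unadjusted p = 0.00262, adjusted p = 0.133) in DKO, -0.76 (0.25, 0.0143, 0.853) in KO and -0.78 (0.27, 0.0190, 0.980) in KH, from limma with Benjamini-Hochberg adjustment. DKO differed from KO and KH by -0.38 and -0.35 (adjusted p = 0.989 and 0.971), with intervals of 0.521-fold to 1.14-fold and 0.510-fold to 1.20-fold. With libraries weighted by limma's arrayWeights the DKO difference of Tgm5 was called, with an adjusted p of 0.0295, and over all 11 settings that kept every library its adjusted p ran from 0.0295 to 0.206. Tgm5 spans chr2:121046111-121085841 on the minus strand, with 13 exons in its longest transcript, and shares this locus with Gm14213, which is listed at 0 in every library.

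Among the late genes, Cdsn was 377.3 and 414.3 FPKM in WT, while KO embryos had 112.8, 246.3 and 355.5 FPKM, KH embryos 98.6 and 342.9 and DKO embryos 360.7 and 181.5. Every library without Esrp1 was below both WT libraries, but KO replicate 3, KH replicate 2 and DKO replicate 1 came close to WT. The log2 difference was -0.63 in DKO, -0.88 in KO and -1.10 in KH (standard errors 0.67, 0.61 and 0.67, adjusted p = 0.692, 0.853 and 0.980 by limma with Benjamini-Hochberg adjustment). Without KO replicate 1, KH replicate 1 and DKO replicate 2 these became -0.13, -0.42 and -0.20.

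Cnfn was the 1 gene of the 10 with a positive difference in every comparison with WT. It was 1049 and 808.0 FPKM in WT, while KO embryos had 795.4, 1938 and 1042 FPKM, KH embryos 594.6 and 1456 and DKO embryos 1906 and 1194. Both DKO libraries exceeded both WT libraries, whereas KO and KH overlapped WT. The log2 difference was 0.71 in DKO (0.683-fold to 3.93-fold, adjusted p = 0.581 by limma with Benjamini-Hochberg adjustment), 0.35 in KO and 0.02 in KH, and the sign in KO turned without KO replicate 2 (-0.017) and in KH without KH replicate 2 (-0.63) or WT replicate 2 (-0.17).

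Casp14 was 441.7 and 519.5 FPKM in WT, while KO embryos had 236.7, 328.5 and 480.7 FPKM, KH embryos 212.4 and 588.5 and DKO embryos 498.4 and 398.0. KH held both its lowest and its highest value. Its log2 difference from WT was -0.10 in DKO, -0.52 in KO and -0.44 in KH (adjusted p = 0.944, 0.853 and 0.980 by limma with Benjamini-Hochberg adjustment), and its sign turned in DKO without DKO replicate 2 (0.057) or WT replicate 2 (0.012) and in KH without KH replicate 1 (0.30).

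**Figure D2:**
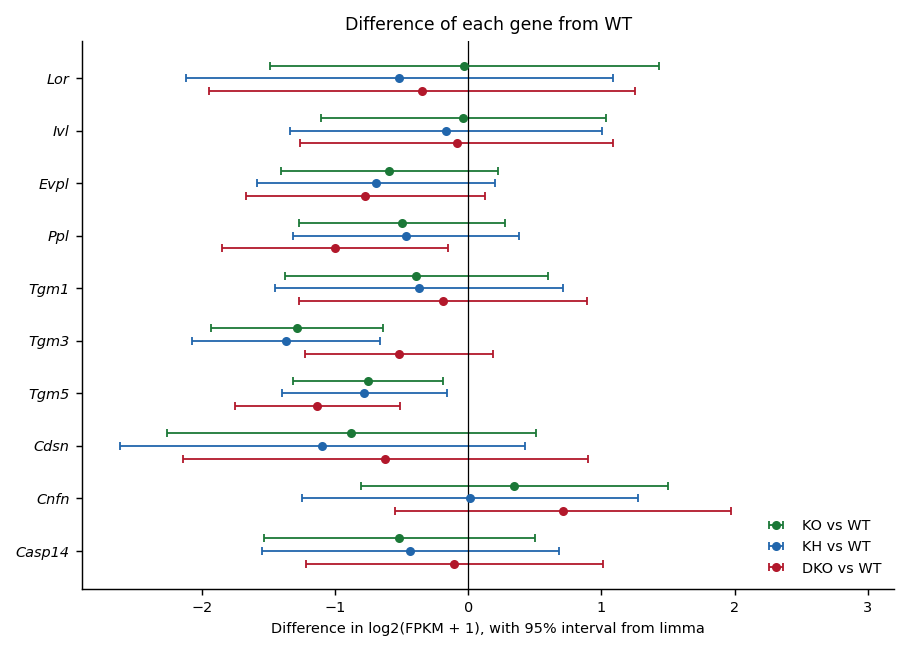
Difference of KO, KH and DKO from WT in log2(FPKM + 1) (horizontal axis) for each of the 10 genes (vertical axis). Points are limma estimates and bars their 95% intervals, without adjustment for the number of genes. For Tgm5 the bars of all 3 genotypes lie below 0, for Tgm3 those of KO and KH, and for Ppl that of DKO.

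Counted over the 10 genes, both DKO libraries were below both WT libraries in 5 (Evpl, Ppl, Tgm3, Tgm5 and Cdsn) and above in 1 (Cnfn), while this held for 26.4% and 27.8% of all genes. All KO libraries were below WT in 3 genes (Tgm3, Tgm5 and Cdsn) and above in 0, beside 12.1% and 12.6% of all genes. Both KH libraries were below WT in 4 genes (Evpl, Tgm3, Tgm5 and Cdsn) and above in 0, beside 16.6% and 15.3%. Tgm3, Tgm5 and Cdsn were below WT in all 7 libraries without Esrp1, and Tgm3 was the only one of the 10 with both DKO libraries above all KO and KH libraries.

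Libraries of one genotype differed in most of the 10 genes at once. KO replicate 1 was among the 3 lowest libraries for 10 of the 10 genes, KH replicate 1 for 9 and DKO replicate 2 for 7. The ratio of spinous to basal marker sums was 3.95, 5.40 and 4.80 in these libraries and 10.2 to 17.7 in the other 6. The spinous sums are mostly Krt1, Krt10 and Krtdap. The ratio of the highest to the lowest library within a genotype had a median over the 10 genes of 1.17 in WT, 2.31 in KO, 1.87 in KH and 1.46 in DKO.

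Within KH, replicate 2 exceeded replicate 1 by 3.48-fold for Cdsn, 3.04-fold for Lor and 2.77-fold for Casp14, but by 1.397-fold for Tgm5 and 1.11-fold for Tgm3. Within DKO, replicate 1 exceeded replicate 2 by 2.14-fold for Lor and 1.99-fold for Cdsn, but by 1.15-fold for Ppl and 1.11-fold for Evpl, and Tgm3 had a ratio of 0.956. In KH and DKO, Lor and Cdsn therefore differed most between embryos and Tgm3 least. In the profile of each library relative to WT, KO replicate 1 and KH replicate 1 lay below the WT mean for all 10 genes, DKO replicate 2 for all but Cnfn, and KO replicate 2 for all but Lor, Ivl and Cnfn.

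**Figure D3:**
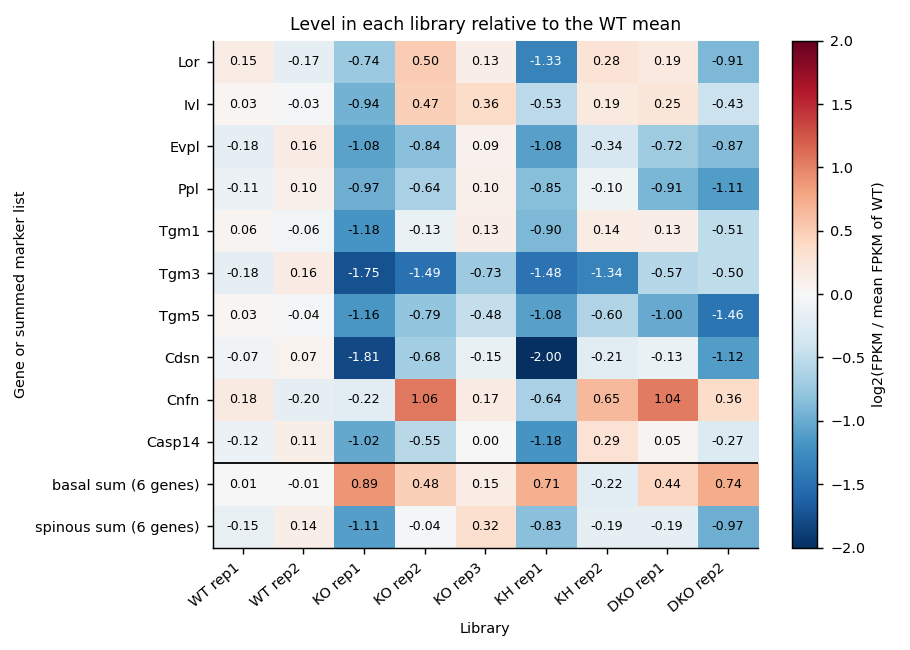
Heat map of log2 of the FPKM of each library (columns) over the mean FPKM of WT, for the 10 genes and for the summed basal and spinous marker genes (rows). Blue is below and red above the WT mean. KO replicate 1, KH replicate 1 and DKO replicate 2 combine low values of most envelope genes with basal sums of 0.89, 0.71 and 0.74 and spinous sums of -1.11, -0.83 and -0.97.

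Pearson correlations of log2(FPKM + 1) between the 10 genes over the 9 libraries are descriptive, since the libraries share genotype and composition. The highest were 0.95 for Tgm1 and Cdsn, 0.93 for Evpl and Ppl, 0.93 for Cdsn and Casp14, and 0.92 for Ivl and Tgm1. Cnfn had values between -0.08 and 0.01 with Tgm5, Ppl, Evpl and Tgm3, but 0.75 with Lor, 0.70 with Ivl, 0.61 with Tgm1 and 0.51 with both Cdsn and Casp14. Lor and Tgm3 had 0.20.

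Among 6416 other genes averaging at least 10 FPKM, the gene closest to each by this correlation was Dhrs3 for Lor (r = 0.98), Mkrn1 for Ivl (0.98), Spnb3 for Evpl (0.99), Abca12 for Ppl (0.99), Lce1h for Tgm1 (0.99), Rnf144b for Tgm3 (0.98), F3 for Tgm5 (0.98), Zkscan6 for Cdsn (0.99), Cstb for Cnfn (0.97) and Acpp for Casp14 (0.98). Abca12 transports lipids into lamellar granules, Lce1h is a late cornified envelope gene and Cstb encodes the protease inhibitor cystatin B. Rnf144b, closest to Tgm3, was 18.6 and 19.5 FPKM in WT, 15.0 FPKM in both DKO libraries and 10.7 to 15.05 FPKM in KO and KH. F3, closest to Tgm5, was 309.1 and 284.8 FPKM in WT, 65.4 to 148.3 FPKM in KO and KH, and 44.3 and 29.6 FPKM in DKO.

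Around these 10 genes, the wider cornification programme was counted from lists. The list of other precursors was drawn broadly, with 12 genes tested (Scel, Flg, Flg2, Hrnr, Rptn, Crnn, Tchh, Kprp, Krtdap, Sbsn, Dmkn and Anxa1). Of these, 2 were called higher in DKO than in WT and 0 lower, beside 0.728% of all genes called in either direction. Rptn, a fused S100 protein, was 13.4 and 14.8 FPKM in WT, while KO embryos had at most 13.6 FPKM, KH embryos 8.31 and 5.92 and DKO embryos 320.7 and 287.8, a log2 difference from WT of 4.34 (standard error 0.40, adjusted p = 0.00175 by limma with Benjamini-Hochberg adjustment). Crnn, of the same family, was 2.36 and 3.57 FPKM in WT, 1.29 to 3.78 FPKM in KO and KH, and 34.8 and 20.6 FPKM in DKO, a log2 difference of 2.83 (0.43, 0.0234). Both were also called in DKO against KO (log2 difference 4.82 for Rptn and 3.10 for Crnn) and against KH (5.25 and 2.99), and 0 of the 12 was called in KO or KH against WT, where 2 and 1 had an unadjusted p below 0.05, beside 4.53% and 3.72% of all genes. The call of Rptn in DKO against WT held without each library in turn, and that of Crnn in 4 of 9 such fits, being lost without WT replicate 1 (adjusted p = 0.211), WT replicate 2 (0.181), KO replicate 2 (0.0571), DKO replicate 1 (0.193) or DKO replicate 2 (0.0760). Against KO the call of Crnn was lost without DKO replicate 1 (0.138), and against KH it held in 3 of 9 fits, being lost without WT replicate 1 or 2, KO replicate 2, KH replicate 1, or DKO replicate 1 or 2 (0.0613 to 0.224). The Crnn call against KH also held in 8 of 11 settings that kept every library, being lost with no filter (0.0774), with 2 genotypes fitted (0.136) and with the replicate block (0.0709).

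The other lists held 0 genes called in DKO, KO or KH against WT by limma, and 0 with an unadjusted p below 0.05 in KO or KH. In DKO against WT the median log2 difference was -0.34 over the 12 other precursors, -0.04 over 4 other plakins, -0.22 over 2 other transglutaminases, -0.46 over 14 processing and shedding genes, -0.56 over 11 lipid envelope genes and -0.33 over 15 differentiation factors, beside 0.02 over all genes. Without KO replicate 1, KH replicate 1 and DKO replicate 2 these medians were -0.03, -0.13, -0.19, -0.11, -0.20 and -0.19 in the same order, beside 0.01 over all genes. Unadjusted p values below 0.05 were found in DKO for 5 of the other precursors (2 higher, 3 lower), 1 of the plakins (lower), 1 of the transglutaminases (lower), 1 processing gene (higher), 1 lipid gene (lower) and 3 differentiation factors (1 higher, 2 lower), beside 13.8% of all genes tested. Krtdap is on both the precursor and the spinous list.

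By size of the DKO difference, the leading gene of the plakin list was Dsp (desmoplakin), at 626.8 ± 191.3 FPKM (SD, n = 2) in WT and 293.3 ± 3.18 (SD, n = 2) in DKO, a log2 difference of -1.06 (adjusted p = 0.298 by limma with Benjamini-Hochberg adjustment). F13a1, the coagulation factor XIII transglutaminase subunit, was 0.466 FPKM in WT and 0.143 FPKM in DKO on average (-0.37, 0.254), a difference that depends on the pseudocount (-1.396 with 0.1 in place of 1). Tgm2, Tgm4, Tgm6, F13b and Epb4.2 did not pass the filter. Klk5, a kallikrein that degrades corneodesmosin, was 383.3 ± 3.46 FPKM (SD, n = 2) in WT and 153.5 ± 96.5 (SD, n = 2) in DKO (-1.47, 0.382), and this difference was -2.16 without DKO replicate 1 and -0.79 without DKO replicate 2. Abca12 was 61.6 ± 11.4 FPKM (SD, n = 2) in WT and 18.4 ± 4.25 (SD, n = 2) in DKO (-1.69, 0.266). Grhl1, a grainyhead-like transcription factor of epidermal differentiation, was 131.5 and 118.1 FPKM in WT, while KO embryos had 52.8 to 113.9 FPKM, KH embryos 62.4 and 107.2 FPKM and DKO embryos 43.0 and 41.6 FPKM (-1.54, 0.136). With only DKO and WT in the fit, Abca12 and Grhl1 were called, at adjusted p values of 0.0215 and 0.0129, and Grhl1 was also called with TPM (0.0397) and with arrayWeights (0.0271), but not in the other 8 of 11 settings that kept every library.

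**Figure D4:**
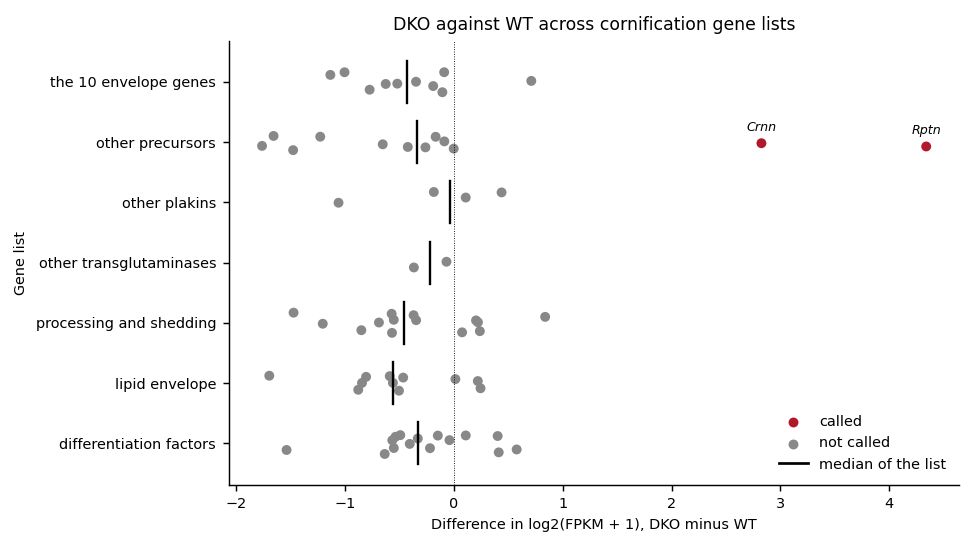
Difference between DKO and WT in log2(FPKM + 1) (horizontal axis) of each gene on 7 cornification lists (vertical axis). Each point is a gene, red where called, and the black line is the median of its list. Rptn (4.34) and Crnn (2.83) are the called genes, and the 10 envelope genes lie between -1.13 and 0.71.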

How the data were processed

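The authors mapped paired reads of stranded, poly(A)-selected libraries to mm10 with the Ensembl release 72 annotation by TopHat 1.4.1 and computed the deposited FPKM values per gene with Cuffdiff 2.2.0 (versions per the submitters' processing notes); how Cuffdiff scaled libraries is not given in the sources used here. FPKM holds no counts, so depth behind a value is unknown and no counting interval is given; precision rests on the number of embryos. The table's own genotype means were not used, since 11 of them were off by more than 0.1%. Genes averaging above 0.1 FPKM in at least 1 genotype were fitted as log2(FPKM + 1), a scale that understates changes of low genes, with limma 3.58.1 in R 4.3.3: 9 libraries, 4 genotype means, an intensity trend in eBayes, 5 residual degrees of freedom, and Benjamini-Hochberg adjustment over all tested genes within each comparison. Calls needed an adjusted p below 0.05 and genotype means over 2-fold apart, after the study's thresholds. On simulated data for DKO against WT, 200 of 16897 genes were changed, drawn from the more highly expressed ones. A log2 change of 2 was called in 79% of these and one of 1 in 0%, with 12 and 0 false calls. With no gene changed there was 1 false call. Noise was drawn separately for each gene, whereas whole libraries shift together in the real data. These shares therefore do not give the power or error rate of the real test.

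The 10 genes and all lists and alternatives were chosen with earlier results of these data known. Genes were named by a rule: the 10 genes, called genes of the other lists and the gene of each list with the largest absolute difference between DKO and WT, the closest gene to each of the 10 by Pearson correlation, Esrp1 and Esrp2. Xist, Gm14213, Krtdap, single spinous and fibroblast markers and the members given for the precursor list were named outside the rule, after their values were seen. So were the genes of the transglutaminase list that did not pass the filter, and the promoter motifs were likewise chosen then. Cers3 and Eppk1 had no row under these symbols, and Lelp1 did not pass the filter. Of the red cell markers 3 of 5 were found. Gene positions are those of GENCODE M21 on GRCm38, the build that mm10 names. Tables and plots were made with Python 3.11.15, pandas 2.3.3, numpy 2.4.6 and matplotlib 3.10.9. Splicing was not analysed here.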

Additional observations from a re-analysis of the deposited data

How the results depend on the processing

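The 36 log2 differences of the 10 genes that were examined kept their sign and their side of the threshold in 393 of 396 values over 11 settings that kept all libraries. The exceptions were Lor and Ivl in KO against WT, at 0.0037 and 0.0064 with a loess correction for transcript length, and Tgm5 in DKO against WT, called with arrayWeights, which made the number of the 10 genes called there 1; it was 0 under every other setting and in every other comparison. Leaving out 1 library at a time turned the sign of 12 differences, none called: in DKO against WT, Lor ranged from -0.90 to 0.20, Ivl from -0.43 to 0.25, Tgm1 from -0.51 to 0.13 and Casp14 from -0.27 to 0.057; in KO against WT, Lor from -0.30 to 0.32, Ivl from -0.29 to 0.42 and Cnfn from -0.017 to 0.63; in KH against WT, Lor from -1.32 to 0.28, Ivl from -0.53 to 0.19, Tgm1 from -0.89 to 0.14, Cnfn from -0.63 to 0.66 and Casp14 from -1.17 to 0.30. Without KO replicate 1, KH replicate 1 and DKO replicate 2 together (chosen after seeing the data), Tgm1 and Casp14 became 0.13 and 0.057 in DKO and 0.14 and 0.30 in KH against WT, beside Lor (0.20, 0.32 and 0.28 in DKO, KO and KH) and Ivl (0.25, 0.42 and 0.19), and the Crnn call in DKO against WT was lost (adjusted p = 0.0909), as it was with no filter (0.0725) and with the replicate block (0.0642). With the 3 libraries left out, Crnn was also not called against KO (0.0950) or KH (0.155). The cause of these shifts was not tested. The replicate block, the replicate number of the titles as a factor, gave 0 calls among the 10 genes and a Tgm5 difference of -1.13 in DKO against WT. Deviations of each library from its genotype mean were correlated over all tested genes. In a genotype of 2 libraries these deviations mirror each other, so values come in pairs of opposite sign. By this measure, libraries with the same title number correlated between -0.567 and 0.468. Those with the same number in the column names, which differs for DKO, KO replicate 3 and WT replicate 2, correlated between -0.23 and 0.543. No label ties a number to a shared litter or day, so the numbers were not taken to pair embryos. Calls over all genes in DKO against WT numbered 123, but 67 with the block, 95 without the trend, 400 with 2 genotypes fitted, 556 with arrayWeights and 54 to 152 without single libraries. TPM moved the median of all genes in DKO against KH by -0.11.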
